A study of Saccharomyces cerevisiae with 8 samples.

Results

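TIR1, TIR2, TIR3, TIR4, DAN1, DAN4, CWP1 and CWP2 encode mannoproteins of the budding yeast cell wall, and 8 of the 5580 named genes measured here belong to this group. The members were chosen by gene name, with their values on these same arrays already known from an earlier look at the data, so their values and differences are a description and carry no test. Each of the 8 genes was matched by 1 probe set that carried its symbol and no other. Total RNA of Saccharomyces cerevisiae in log phase was measured on 8 one-colour oligonucleotide arrays. The groups were an sgs1 null strain grown with methyl methanesulfonate (MMS), the sgs1 null strain untreated, wild type with MMS and wild type untreated, with 2 arrays each. MMS is an alkylating agent that damages DNA, and SGS1 encodes a DNA helicase of the RecQ family. The strain background, the dose and the time in MMS are not given in the labels. Nothing in them tells separate cultures from repeat hybridisations, so the standard errors and p-values hold for the spread between arrays, some or all of which may be technical.

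These proteins are secreted, heavily mannosylated and anchored through a glycosylphosphatidylinositol (GPI) lipid before they are linked to the glucan of the wall. CWP1 and CWP2 encode major wall proteins of cells grown in air. The TIR and DAN genes are known for expression without oxygen, when yeast remodels its wall and the CWP genes are turned down. TIR1 and TIR2 are also induced by cold, as is their relative TIP1, and growth without oxygen needs TIR1, TIR3 and TIR4. In air the DAN and TIR genes are repressed by Rox1 and Mot3 with the Tup1-Cyc8 co-repressor, and without oxygen they are activated by Upc2.

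The deposited intensity of the deleted gene, SGS1, lay between 1.7 and 17.7 on the 4 sgs1 null arrays and between 339.1 and 777.3 on the 4 wild-type arrays. Intensities below are quantile normalized, on a linear scale, with a floor of 97.1 set on low values. Differences are log2 values, MMS minus untreated or sgs1 null minus wild type, with the standard error of a limma fit over all 8 arrays. Precision is limited by there being 2 arrays per group. The unmarked array of a group is given first and the array marked rep in its label second. Intensities of different probe sets cannot be set against each other, so each gene is compared only with itself.

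With MMS, all 8 genes were lower in both strains by their group means, CWP2 by no more than 0.13 on the log2 scale (-0.52 in wild type with median centring). In wild type the 2 MMS arrays lay below both untreated arrays for 8 of 8 genes, where 24.7% of all 7641 features were separated downward and 26.4% upward. In the sgs1 null strain this order held for 7 of 8 genes, against 20.9% of all features downward and 23.6% upward, with CWP2 the exception. These counts depend on the normalization. On the deposited values DAN4 overlapped in wild type (750.3 with MMS, 676.9 untreated). In the sgs1 null strain DAN4 (754 with MMS, 753.5 untreated) and TIR2 (4167.2 with MMS, 4112.5 untreated) then overlapped as well. The samples were bulk RNA, in which fewer cells expressing a gene and less of its RNA per cell cannot be told apart. The median difference of the 8 genes was -0.99 in the sgs1 null strain and -1.65 in wild type, and the median over all features was 0 in both. Of the 8 genes, 1 passed an adjusted p of 0.05 in the sgs1 null strain (DAN1), where 2.51% of all features were called. In wild type 3 did (TIR1, DAN1 and CWP1), where 6.35% were called. These contrasts were known when the genes were picked, so nothing is read from the counts. With any one of the 4 wild-type arrays left out, 0 of the 8 genes were called in wild type, and with any one of the 8 arrays left out, 0 were called in the sgs1 null strain. Without any one sgs1 null array, DAN1 alone was called in wild type.

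**Figure D1:**
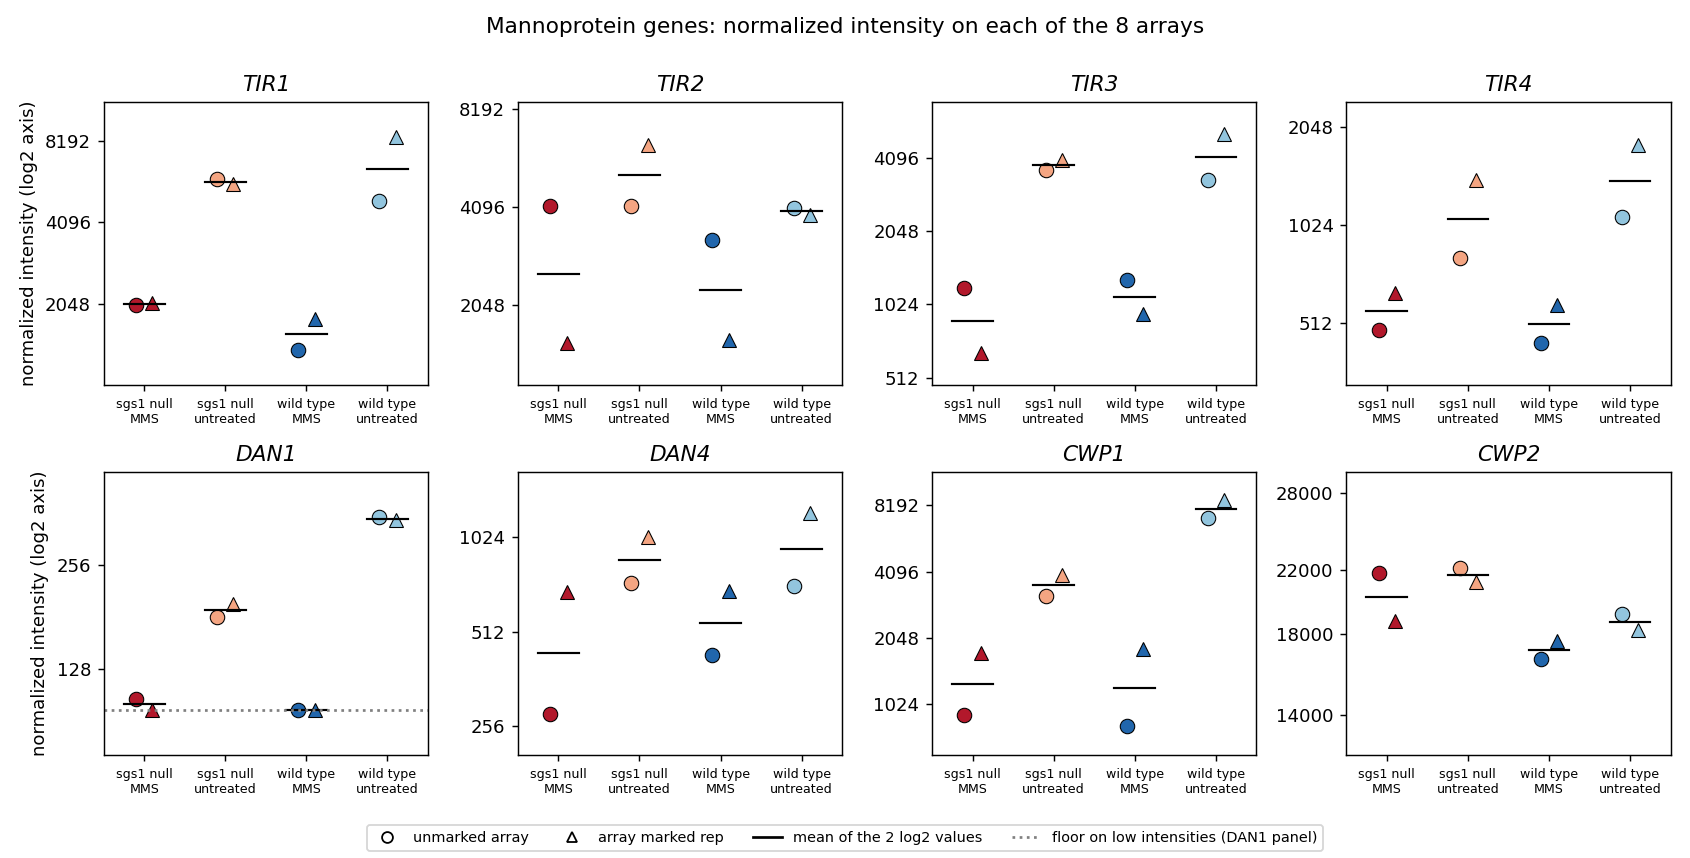
Normalized intensity (log2 axis, a separate range for each gene) of the 8 mannoprotein genes on the 8 arrays. Circles are unmarked arrays, triangles arrays marked rep, bars the mean of the 2 log2 values and the dotted line the floor of 97.1. In wild type the MMS arrays lie below the untreated arrays in all 8 panels, and CWP2 spans 0.41 on the log2 scale over all arrays, against 3.41 for CWP1.

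TIR1 encodes a serine- and alanine-rich wall protein. Its normalized intensity was 2025 and 2068 in sgs1 null cells with MMS, against 5892 and 5674 in untreated sgs1 null cells. In wild type it was 1382 and 1797 with MMS, against 4906 and 8424 untreated. The MMS and untreated arrays were well apart in both strains. The difference was -1.50 ± 0.28 (SE) in the sgs1 null strain and -2.03 ± 0.28 in wild type. TIR1 ranked 92nd from the lowest of 7641 features by this difference in the sgs1 null strain and 40th in wild type.

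TIR3, which cells need for growth without oxygen, had the lowest MMS difference of the TIR genes in the sgs1 null strain. Its intensity there was 1201 and 644 with MMS, against 3652 and 4038 untreated. Wild-type arrays gave 1285 and 938 with MMS, against 3316 and 5161 untreated. The highest MMS array of either strain was thus under the lowest untreated one. The difference was -2.13 ± 0.39 in the sgs1 null strain, the 18th lowest of all features, and -1.91 ± 0.39 in wild type, the 48th lowest.

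TIR4 was measured at 490 and 633 in sgs1 null cells with MMS, against 812 and 1410 in untreated sgs1 null cells. The wild-type values were 447 and 583 with MMS, against 1082 and 1805 untreated. The groups did not overlap in either strain, and on each strain and treatment the array marked rep was the higher one. The difference was -0.94 ± 0.39 in the sgs1 null strain and -1.45 ± 0.39 in wild type.

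TIR2, like TIR1 induced by cold, differed more between the arrays of a group. With MMS it was 4118 and 1572 in the sgs1 null strain, against 4122 and 6352 untreated. In wild-type cells TIR2 was 3252 and 1599 with MMS, against 4073 and 3861 untreated. In the sgs1 null strain the unmarked arrays were nearly equal with and without MMS, so the groups were kept apart there by a difference of -0.00172 on the log2 scale. The fitted difference was -1.01 ± 0.59 in the sgs1 null strain and -0.80 ± 0.59 in wild type.

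DAN1, a gene known as almost silent in air, reached the floor on 3 arrays. In sgs1 null cells it was 105 and at the floor with MMS, against 181 and 197 untreated. In wild type both MMS arrays were at the floor (deposited intensities 90 and 73.9), against 353 and 345 untreated. The wild-type value with MMS is therefore only a bound, and DAN1 was at least 3.59-fold lower with MMS in wild type. Of the sgs1 null arrays with MMS, 1 of 2 was at the floor, so the fitted difference of -0.91 ± 0.08, on which the DAN1 call there rests, is a limit as well. The standard error is small partly because values at the floor have no spread. With no floor the differences were -0.93 in the sgs1 null strain and -2.0 in wild type. With the floor at the 20th percentile all 4 sgs1 null readings lay under it, which leaves no difference there, and the difference in wild type was -0.73.

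DAN4, the neighbour of DAN1, was 281 and 687 in sgs1 null cells with MMS, against 731 and 1026 untreated. The wild-type values were 430 and 691 with MMS, against 717 and 1225 untreated. In both strains the higher MMS array came close to the lower untreated array. The difference was -0.98 ± 0.55 in the sgs1 null strain and -0.78 ± 0.55 in wild type.

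CWP1, whose product is laid down in the wall at the birth scar, had the largest drop of the 8 genes in wild type. It was 916 and 1755 in sgs1 null cells with MMS, against 3167 and 3966 untreated. CWP1 in wild type was 812 and 1815 with MMS, against 7180 and 8622 untreated. The MMS arrays of the 2 strains covered nearly the same range, while the untreated arrays did not overlap between strains. The difference was -1.48 ± 0.49 in the sgs1 null strain and -2.70 ± 0.49 in wild type, where CWP1 ranked 15th from the lowest of all features.

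CWP2 lies beside CWP1 in the genome and showed little of this. Its intensity was 21841 and 18787 in sgs1 null cells with MMS, against 22184 and 21221 untreated. Wild-type arrays gave 16655 and 17650 with MMS, against 19181 and 18265 untreated. The sgs1 null groups overlapped and the wild-type groups were narrowly apart. On the deposited values the gap in wild type was wider, with 16644.4 and 15547.6 with MMS, against 20329.5 and 21542.9 untreated. The difference was -0.10 ± 0.10 in the sgs1 null strain and -0.13 ± 0.10 in wild type. With median centring in place of quantile normalization it was -0.21 in the sgs1 null strain and -0.52 in wild type. On each array it lay between the 99.3 and 99.8 percentile of all features, and saturation of so bright a probe set was not tested. Over all 8 arrays CWP2 spanned 0.41 on the log2 scale, and 7.08% of features had a smaller span, while the other 7 genes spanned 1.86 to 3.41.

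**Figure D2:**
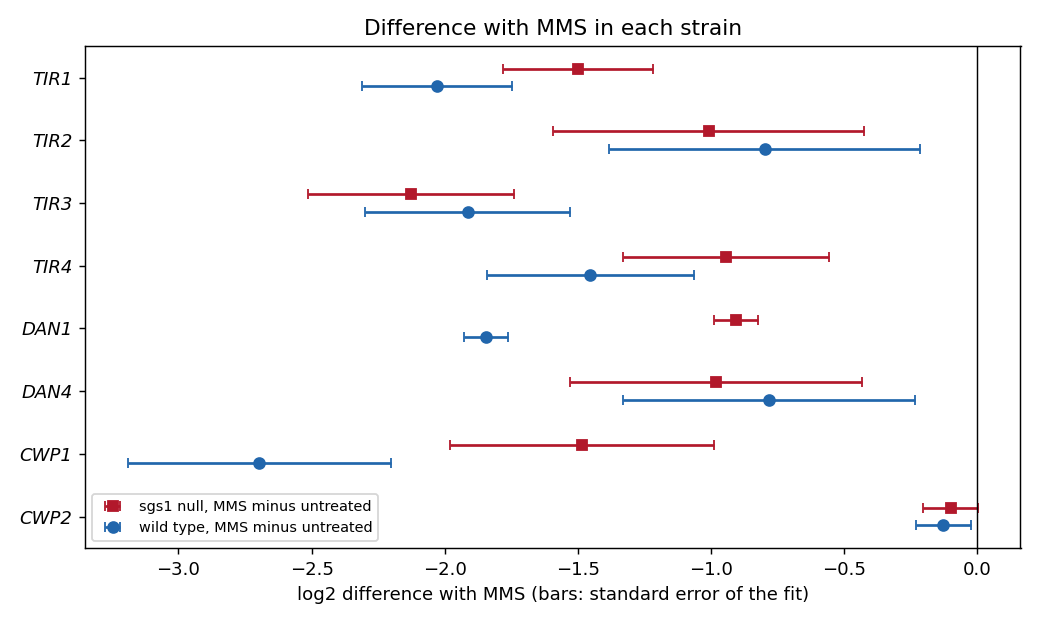
Log2 difference with MMS (x axis) for each gene, with bars for the standard error of the fit. Squares are the sgs1 null strain and circles wild type, with 2 arrays per group. All points lie below 0, from -0.10 and -0.13 for CWP2 to -2.13 for TIR3 in the sgs1 null strain and -2.70 for CWP1 in wild type.

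Because 1 array of each group was marked rep, each MMS difference can also be taken from the unmarked arrays alone and from the marked arrays alone. In the sgs1 null strain 8 of 8 genes were lower with MMS in either pair, and 4 in the unmarked and 6 in the marked pair were lower by at least 1. In wild type 8 of 8 were lower in either pair, and 5 in the unmarked and 6 in the marked pair were lower by at least 1. Where the groups did not overlap, any pair had to be lower, so the direction in the pairs is no second look. The share of all features lower in both pairs was not taken. On the deposited values the unmarked sgs1 null pair was higher with MMS for TIR2 (4167.2 against 4112.5) and CWP2 (21219.5 against 20632.3). TIR2 and TIR3 had larger drops in the marked pair in both strains. For TIR2 the difference was -2.01 marked and -0.00172 unmarked in the sgs1 null strain, and -1.27 marked and -0.32 unmarked in wild type. TIR3 had -2.65 marked and -1.60 unmarked in the sgs1 null strain, and -2.46 marked and -1.37 unmarked in wild type. CWP1 went the other way, with -1.18 marked and -1.79 unmarked in the sgs1 null strain, and -2.25 marked and -3.14 unmarked in wild type. Over all features, the deviation of the marked from the unmarked array was correlated at 0.667 between the MMS groups of the 2 strains, and between -0.0751 and 0.543 for the other 5 pairs of groups. The labels do not say what the mark stands for, and its part in these differences was not tested.

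**Figure D3:**
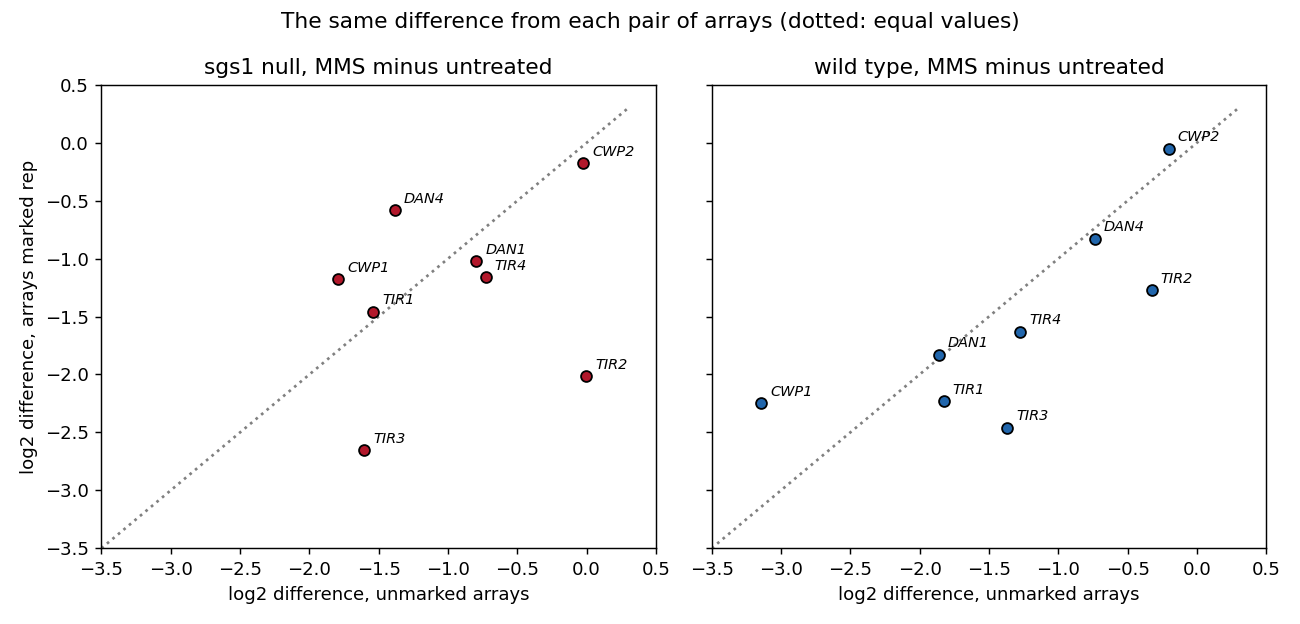
Log2 difference with MMS from the unmarked arrays (x axis) and from the arrays marked rep (y axis), 1 point per gene, sgs1 null on the left and wild type on the right. Points below the dotted line of equal values, such as TIR2 and TIR3, had the larger drop on the marked arrays, and CWP1 lies above it in both strains.

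In untreated cells, CWP1 and DAN1 were lower in the sgs1 null strain and the rest showed no common direction. CWP1 was lower by 1.15 on the log2 scale (-1.15 ± 0.49), the 68th lowest of all features, and the arrays of the 2 strains did not overlap. DAN1 differed by -0.89 ± 0.08 (-0.63 on the deposited scale) and did not overlap either. That standard error pools the spread of all 4 groups, and it is small partly because MMS readings at the floor have none. TIR2 and CWP2 were apart in the other direction, with differences of 0.37 ± 0.59 and 0.21 ± 0.10. The sign for CWP2 turned with median centring (-0.12) and it was 0.02 on the deposited scale. The strains overlapped for TIR1 (-0.15 ± 0.28), TIR3 (-0.11 ± 0.39), TIR4 (-0.39 ± 0.39) and DAN4 (-0.11 ± 0.55). Thus 2 of 8 genes were separated downward and 2 upward, where 19.6% and 19.3% of all features were. An adjusted p of 0.05 was passed by 0 of the 8 genes and by 0.0262% of all features. With the floor at the 20th percentile DAN1 was called (-0.73), with both its sgs1 null readings at that floor and so without spread. The median of the 8 genes was -0.13, and it was 0.19 without the untreated wild-type array marked rep and -0.52 without the unmarked one.

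With MMS, the group means of the 8 genes differed by at most 0.38 between the strains, a limit that did not hold with 1 array left out. Over those fits DAN4 ran from -0.93 to 0.34, TIR2 from -0.54 to 0.87, TIR3 from -0.77 to 0.13 and CWP1 from -0.52 to 0.64. TIR1 was 0.38 ± 0.28 and CWP2 0.24 ± 0.10 in the sgs1 null strain relative to wild type, and these 2 genes alone did not overlap. Upward separation was seen for 12.6% of all features and downward separation, which 0 members showed, for 12.9%. The differences of the other 6 genes lay between -0.32 ± 0.39 for TIR3 and 0.16 ± 0.59 for TIR2, and each turned in sign, or came to 0 for DAN1, when some single array was left out. CWP1, which differed between the untreated strains, had 0.06 ± 0.49 here, and DAN1 had 0.05 ± 0.08 with 3 of its 4 arrays at the floor. None of the 8 genes was called, and 0.0131% of all features were.

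The difference between the MMS responses, sgs1 null minus wild type, was 1.21 ± 0.70 for CWP1, the 55th highest of all features. For DAN1 it was 0.94 ± 0.12, where the floor cuts both responses short and narrows the standard error. With no floor it was 1.07 for DAN1. It was 0.53 ± 0.40 for TIR1 and 0.51 ± 0.55 for TIR4. The remaining genes had 0.03 ± 0.15 for CWP2, -0.20 ± 0.78 for DAN4 and -0.21 for both TIR2 (± 0.83) and TIR3 (± 0.55). With 1 array left out, CWP1 ran from 0.64 to 1.81, TIR1 from 0.14 to 0.91 and TIR4 from 0.11 to 0.93, so these kept their sign. Over the same fits CWP2 ran from -0.09 to 0.14, DAN4 from -0.82 to 0.45, TIR2 from -0.90 to 0.49 and TIR3 from -0.66 to 0.24. By limma 0 of 7641 features (0%) were called for this contrast, with 363 at an unadjusted p under 0.05. With the floor at the 20th percentile the 1 feature called was DAN1. All its sgs1 null readings and both wild-type MMS readings lay at that floor, without spread. That call therefore rests on untreated wild type against the floor and shows no response in the sgs1 null strain. This contrast uses the same 8 arrays as the contrasts above.

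By group mean, 6 of the 8 genes were highest in untreated wild type and 2, TIR2 and CWP2, in untreated sgs1 null cells. For CWP1 and DAN1 the order was untreated wild type, untreated sgs1 null, sgs1 null with MMS and wild type with MMS, with overlap only between the last 2 groups. For TIR1 the same order held, but there the 2 untreated groups overlapped and the 2 MMS groups did not. For TIR3, TIR4 and DAN4 the arrays overlapped within each treatment and were apart between treatments, which for DAN4 did not hold on the deposited values. For CWP2 only the lowest group, wild type with MMS, was apart from its neighbour in the order.

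Of the 8 genes, 6 lie in 3 pairs of chromosomal neighbours in the RefSeq gene table of assembly R64. TIR4 and TIR2 are neighbours on chromosome XV and point towards each other, DAN1 and DAN4 lie in the same orientation on chromosome X, and CWP2 and CWP1 lie in the same orientation on chromosome XI. The MMS differences of neighbours are set side by side here, and no test compared them. In the sgs1 null strain they were -0.94 ± 0.39 for TIR4 and -1.01 ± 0.59 for TIR2, -0.91 ± 0.08 for DAN1 and -0.98 ± 0.55 for DAN4, and -1.48 ± 0.49 for CWP1 and -0.10 ± 0.10 for CWP2. In wild type they were -1.45 ± 0.39 for TIR4 and -0.80 ± 0.59 for TIR2, at least 3.59-fold lower for DAN1 and -0.78 ± 0.55 for DAN4, and -2.70 ± 0.49 for CWP1 and -0.13 ± 0.10 for CWP2. AUS1, a sterol importer gene on the other side of TIR2, had 0.32 ± 0.26 in the sgs1 null strain and -0.32 ± 0.26 in wild type (limma adjusted p = 0.593 and 0.534).

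Likeness over the 8 arrays was measured as the root-mean-square difference of log2 values, each gene centred on its own mean, against 5533 other named genes. None of the 3 nearest genes of any of the 7 members that spanned at least 1 was itself a member. Nearest to TIR1 were YBL029W (0.13), SCM4 (0.22) and PTR2 (0.23). TIR2 lay nearest to TMA23 (0.25), YGL194C-A (0.27) and SNT309 (0.28). For TIR3 the nearest were RPI1 (0.32), TLC1 (0.37), the telomerase RNA gene, and FET4 (0.38), a metal transporter gene. For TIR4 they were NIS1 (0.18), SRT1 (0.20) and SSO2 (0.21). DAN1 lay nearest to FUR1 (0.21), PRM15 (0.24) and GAL10 (0.24), and DAN4 to YPR127W (0.14), PIN4 (0.14) and ISM1 (0.15). CWP1 lay nearest to YOX1 (0.26), a homeodomain repressor gene, YDL241W (0.28) and HTB2 (0.33), a histone gene. Between members the value was smallest for DAN4 with TIR4 (0.35), followed by DAN1 with TIR4 (0.36) and TIR1 with TIR4 (0.38). For a pair of TIR or DAN genes it was largest for TIR2 with DAN4 (0.86). The genes share the 4 groups and the arrays, so these values describe the patterns only. DAN1 was raised to the floor on 3 arrays, so its likeness values rest in part on the floor.

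The regulators of the TIR and DAN genes did not pass the test in any contrast. Of 8 regulators, 0 rose and 0 fell with MMS by limma in either strain, with 0 at an unadjusted p under 0.05 in the sgs1 null strain and 1 in wild type. The one in wild type was SUT1, a regulator of sterol uptake genes (-1.31 ± 0.26, adjusted p = 0.0564). Of all 7641 features, 1540 were under an unadjusted 0.05 in the sgs1 null strain and 1883 in wild type. ROX1, the repressor of hypoxic genes, was 758 and 1484 in sgs1 null cells with MMS, against 416 and 601 untreated, and 832 and 1433 in wild type with MMS, against 455 and 764 untreated. Its groups did not overlap in either strain, where 23.6% (sgs1 null) and 26.4% (wild type) of all features were separated upward. The ROX1 differences were 1.09 ± 0.49 and 0.89 ± 0.49 (adjusted p = 0.315 and 0.354). UPC2, the activator, had -0.07 ± 0.27 in the sgs1 null strain and -0.11 ± 0.27 in wild type, and its paralog ECM22 had -0.43 ± 0.23 and -0.55 ± 0.23. The repressor gene MOT3 had -0.12 ± 0.61 in the sgs1 null strain and 0.48 ± 0.61 in wild type. HAP1, which encodes a haem-responsive activator, had 0.06 ± 0.76 and 1.00 ± 0.76 in the same order of strains. The co-repressor genes TUP1 (-0.18 ± 0.75 and -0.70 ± 0.75) and CYC8 (-0.07 ± 0.70 and -0.51 ± 0.70) had standard errors larger than each of these differences. SUT1 and ECM22 were separated downward in both strains, as were 20.9% (sgs1 null) and 24.7% (wild type) of all features. HAP1 was separated upward in wild type only. Of the sterol importer genes, PDR11 had -0.81 ± 0.43 in the sgs1 null strain and -0.32 ± 0.43 in wild type and did not pass.

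Relatives of the TIR and DAN genes were also lower with MMS by their group means, and few of them passed the test. TIP1, the cold-induced relative of TIR1 and TIR2, was 7287 and 10050 in sgs1 null cells with MMS, against 16348 and 16899 untreated. In wild type it was 3926 and 5816 with MMS, against 14638 and 15522 untreated. TIP1 fell in wild type (-1.66 ± 0.24, limma adjusted p = 0.0312), and in the sgs1 null strain it had -0.96 ± 0.24 (adjusted p = 0.118). The seripauperin (PAU) genes belong to the same wider family and lie mostly near telomeres. Their copies are nearly identical, 12 probe sets carried several PAU symbols and were not used, and the 10 with 1 symbol may still take up signal from other copies. Of TIP1 and these 10 PAU genes, 0 rose, 3 fell and 8 did not pass in wild type, and 0 passed in the sgs1 null strain, where 5 had an unadjusted p under 0.05. All 11 were negative in both strains, with a median of -0.52 in the sgs1 null strain and -0.77 in wild type. Of all features, 47% were negative in the sgs1 null strain and 50.1% in wild type. PAU13 (-1.49 ± 0.17, adjusted p = 0.0193) and PAU23 (-1.48 ± 0.26, adjusted p = 0.0436) fell in wild type. The call of PAU23 was lost on the deposited scale (adjusted p = 0.0683), with the floor at the 20th percentile (adjusted p = 0.0566) and with any single array left out, that of TIP1 with 7 of the 8 arrays left out singly, and that of PAU13 with any wild-type array left out (adjusted p = 0.072 to 0.102). The other PAU genes, PAU3, PAU4, PAU7, PAU10, PAU15, PAU16, PAU17 and PAU19, ran from -0.92 ± 0.17 (PAU16) to -0.26 ± 0.30 (PAU3) in the sgs1 null strain and from -0.96 ± 0.31 (PAU17) to -0.39 ± 0.30 (PAU3) in wild type. Among the other cold-induced genes, LOT5 had 0.45 ± 0.12 in the sgs1 null strain and 0.52 ± 0.12 in wild type, LOT6 -0.17 ± 0.22 and -0.27 ± 0.22, and NSR1 -0.17 ± 0.43 and -0.02 ± 0.43, none past the threshold.

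Among 10 genes regulated by oxygen outside the cell wall, 2 fell and 8 did not pass in the sgs1 null strain (median -0.97), and 4 fell and 6 did not pass in wild type (median -1.48). The list is mixed, as CYC1, COX5A and HMG1 are genes expressed in air. These had -1.40, -0.85 and -0.49 in wild type and 0.02, -0.52 and -0.34 in the sgs1 null strain. All 10 genes were negative in wild type, where 50.1% of all features were, and 3 were positive in the sgs1 null strain. ANB1, a translation factor gene expressed under low oxygen, was 705 and 1031 in sgs1 null cells with MMS, against 6335 and 4298 untreated, and fell by 2.61 ± 0.38 on the log2 scale there (limma adjusted p = 0.0452). In wild type it was 228 and 408 with MMS, against 4616 and 5518 untreated. CYC7, which encodes a cytochrome c isoform, had -2.34 ± 0.28 in the sgs1 null strain and -1.72 ± 0.28 in wild type, and both passed (adjusted p = 0.032 and 0.0364). In wild type HEM13, of haem synthesis, and AAC3, a mitochondrial ADP/ATP carrier gene, also fell (-3.76 ± 0.64 and -1.99 ± 0.24). HEM13 was 107 and 312 in wild type with MMS, the first close to the floor of 97.1, against 2203 and 2800 untreated. With the floor at the 20th percentile its difference was -3.28. The call of ANB1 in the sgs1 null strain was also lost on the deposited scale (adjusted p = 0.0701) and with the floor at the 20th percentile (adjusted p = 0.0523). Each of these calls was lost when any one array of the strain concerned was left out. Both calls in the sgs1 null strain were also lost without any one wild-type array. In wild type that of HEM13 was also lost without any one sgs1 null array, and that of CYC7 without 3 of the 4.

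**Figure D4:**
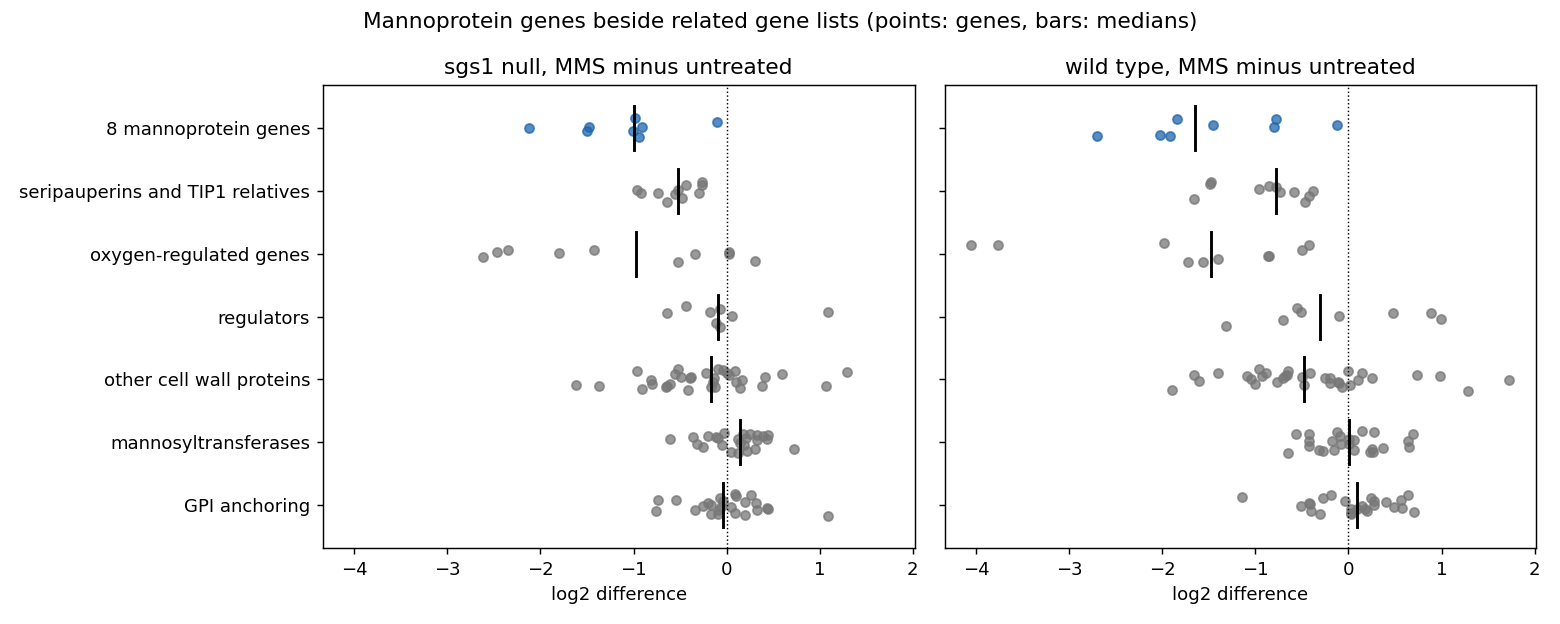
Log2 difference with MMS (x axis) of the 8 mannoprotein genes and of related gene lists, sgs1 null on the left and wild type on the right. Points are genes and bars medians, -0.99 and -1.65 for the 8 genes against -0.52 and -0.77 for the seripauperins with TIP1, -0.97 and -1.48 for the oxygen-regulated genes, and 0.15 and 0.01 for the mannosyltransferases.

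The other wall protein genes, and those of the enzymes that modify wall proteins, had medians nearer 0. Of 33 further wall protein genes, TIP1 among them, 1 rose, 1 fell and 31 did not pass in the sgs1 null strain (median -0.17), and 2 rose, 5 fell and 26 did not pass in wild type (median -0.48). By sign, 22 of the 33 were negative in the sgs1 null strain and 25 in wild type, against 47% and 50.1% of all features. PST1, which encodes a GPI-anchored protein known to rise with wall damage, fell in both strains (-1.62 ± 0.11 in the sgs1 null strain, adjusted p = 0.0164, and -1.01 ± 0.11 in wild type, adjusted p = 0.0192). CRR1, a putative transglycosidase of the spore wall, rose in both (1.29 ± 0.07 and 1.28 ± 0.07). With no floor, the call of CRR1 in the sgs1 null strain (adjusted p = 0.0522) and that of PST1 in wild type (adjusted p = 0.0551) were lost. SPS100, another spore wall gene, rose in wild type (1.73 ± 0.27), where TIP1 and GAS3 (-1.61 ± 0.22) were among the genes that fell. As for the oxygen-regulated genes, the calls in wild type were lost with any wild-type array left out, and those in the sgs1 null strain with any array left out. The wild-type calls of GAS3 and SPS100 were also lost without any one sgs1 null array. Of 25 mannosyltransferase and mannose donor genes, 0 passed in the sgs1 null strain, where OCH1 (0.73 ± 0.19) and MNT3 (-0.61 ± 0.22) had the smallest p and 2 were under an unadjusted 0.05. In wild type 1 rose, PMT6 (0.64 ± 0.11, adjusted p = 0.04), a call lost in 5 of the 9 settings that kept all arrays and with any single array left out. Of 25 genes of GPI synthesis and attachment, 0 passed by limma in either strain, with 2 in each at an unadjusted p under 0.05. The smallest p belonged to PER1 (1.09 ± 0.29) and DFG5 (0.44 ± 0.14) in the sgs1 null strain and to DFG5 (0.70 ± 0.14) and GPI2 (-1.14 ± 0.37) in wild type. Beside these counts, 1540 of all 7641 features were under an unadjusted 0.05 in the sgs1 null strain and 1883 in wild type.

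Between the strains, 0 genes of these lists passed by limma, untreated, with MMS or in the difference between the MMS responses. Of all 7641 features, 805 had an unadjusted p under 0.05 untreated, 472 with MMS and 363 for the difference. The wall protein genes with the smallest p were SPS100 (3.12 ± 0.27, adjusted p = 0.0858) and EGT2 (-0.73 ± 0.16) untreated, PIR3 (1.57 ± 0.28) and EGT2 (-0.72 ± 0.16) with MMS, and SPS100 (-2.53 ± 0.38) and PST1 (-0.61 ± 0.16) for the difference between responses, with 7, 7 and 5 of 33 at an unadjusted p under 0.05. Those of the oxygen-regulated genes were CYC1 (-0.72 ± 0.29) and AAC3 (-0.41 ± 0.24) untreated, OLE1 (1.47 ± 0.24) and ANB1 (1.48 ± 0.38) with MMS, and CYC1 (1.42 ± 0.41) and OLE1 (1.17 ± 0.35) for the difference, with 0, 2 and 3 of 10 under it. For the mannosyltransferases they were OCH1 and PMT4 untreated, MNN1 and PMT6 with MMS and KTR3 and PMT6 for the difference (1, 4 and 3 of 25), and for GPI anchoring GAB1 and PER1, GWT1 and GPI8, and GPI18 and GPI8 (1, 2 and 0 of 25).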

How the data were processed

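The deposited table held 1 linear intensity per probe set and array, as made by the authors. How those values were scaled and corrected for background, and with which software, is not given here in the labels or the file. Of 8363 probe sets, 32 controls and 1 with a missing value were left out. Gene names came from the platform annotation: 6269 probe sets had 1 symbol, 309 several and 1752 none. Arrays were quantile normalized, because their deposited medians ran from 775 to 971.6. Values below the 10th percentile (97.1) were raised to it, values of 1 gene's probe sets were averaged on the log2 scale, and the 7641 features went into 1 linear model (R 4.3.3, limma 3.58.1; the 4 group means with eBayes moderation, 4 residual and 0.986 prior degrees of freedom, two-sided). P-values were adjusted by Benjamini-Hochberg over all features, with a threshold of 0.05. The members, the gene lists, the floor and the alternatives were chosen with earlier results of these data known. The fit was tested on simulated data with known answers.

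The genes named were the 8 members, all measured regulators, sterol importers, cold-induced genes and single-symbol seripauperins with TIP1, up to 4 genes past the threshold per other list and contrast, or else the 2 with the smallest p, and the 3 genes most alike each member in pattern.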

Additional observations from a re-analysis of the deposited data

How the results depend on the processing

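All 8 genes kept a lower mean with MMS in both strains under each of the 17 settings in which they were tested (16 for DAN1, which fell out without the dimmest 25% of features), except that CWP2 came to 0.01 in the sgs1 null strain without its marked MMS array and DAN1 to 0 there with the floor at the 20th percentile. Many of these settings could not turn a sign. The moderation, the replicate block, single probe sets and the removal of dim features leave a member's difference unchanged by construction. Leaving out 1 array can hardly turn the sign where groups do not overlap. The sign was thus tried mainly by the scaling, the floor and the 50 added. In wild type the call of CWP1 was lost on the deposited scale and with the higher floor, and TIR3 gained one in 5 settings; in the sgs1 null strain that of DAN1 was lost with no floor, with the higher floor, with 50 added and with trend and robust moderation, and TIR1 and TIR3 were called with 50 added and without the dimmest 25%. Where 1 array was left out, the lone array of its group was assumed to vary like the other groups. The median of the 8 genes in wild type was -1.13 with the floor at the 20th percentile. Untreated between strains, the median ran from -0.52 to 0.19 over the fits that left out 1 array. The number of features called depended on the setting. For MMS in wild type, 485 became 935 with the mark rep as a replicate block and 0 to 280 with 1 array left out. For MMS in the sgs1 null strain, 192 became 56 with no floor, 120 with trend and robust moderation, 496 with the replicate block and 1 to 13 with 1 array left out. Between untreated strains, 2 became 4 on the deposited scale, 13 with no floor, 6 with the floor at the 20th percentile, 12 with 50 added to each value, 10 without the dimmest 25% of features and 1 with any single array left out except for the 2 wild-type MMS arrays, where 2 stayed. With MMS between strains, 1 became 3 with median centring, 2 on the deposited scale, 7 with 50 added and 4 without the dimmest 25%. For the difference between responses, 0 became 1 with the floor at the 20th percentile. The cause was not tested. With median centring, MMS calls in wild type split into 237 higher and 309 lower, against 261 and 224. On the deposited scale they split into 311 and 200. The labels do not say that the mark pairs arrays, and 2 of the 6 correlations of its deviations between groups were below 0. Under the block, 4 of the 8 genes were called in wild type (TIR1, TIR4, DAN1 and CWP1) and DAN1 in the sgs1 null strain.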
